A study of Macaca fascicularis with 16 samples.

Results

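FOXO transcription factors and a small group of their best known targets were followed in the endometrium of postmenopausal cynomolgus macaques given estradiol, tamoxifen or both. The genes were the factors FOXO1 and FOXO3, the ubiquitin ligases FBXO32 and TRIM63, the kinase PDK4 and the growth factor binding protein IGFBP1. Every probe set whose single symbol in the annotation of the array's platform was one of these names was taken, which gave 9 probe sets of 52766. They stand for 5 of the 6 genes, out of 14132 genes with a probe set of their own on the array. FBXO32 had 5 probe sets, called FBXO32 probe sets 1 to 5 from the brightest to the dimmest, and FOXO1, TRIM63, PDK4 and IGFBP1 had 1 each, while FOXO3 had none under that single symbol and was not analysed here. All 9 probe sets passed the filter on low signal, which kept 31660 probe sets, but IGFBP1 passed it through its control arrays. The genes were chosen from earlier results of these data, in which FBXO32 was among the genes lowest with estradiol relative to control. Differences of the chosen genes from control, and the differences built on them, are therefore given as descriptions with their standard error (SE) and no test. The gene lists described further on were also chosen with earlier results known, so their counts and adjusted p-values against control are descriptions as well.

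All 16 animals were postmenopausal females and were randomized to 4 arms of 4. The control arm received placebo. The estradiol arm had 0.25 mg of micronized estradiol in every 1800 kcal of its diet, and the tamoxifen arm received tamoxifen, a selective estrogen receptor modulator, at 20 mg per 1800 kcal. The combination arm received both drugs at the same doses. Endometrium was sampled after 4 months, and RNA of each animal was hybridised to 1 Affymetrix array designed for the rhesus macaque. Signals are in the arbitrary units of the deposited arrays, and probe sets are not compared with each other in level. A difference is one of mean log2(signal + 4.80) between arms, and a fold is that difference taken back from the log2 scale, so that it understates the difference of dim probe sets. Adjusted p-values are from limma with Benjamini-Hochberg adjustment over all 31660 probe sets, with a threshold of 0.05.

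FOXO factors are forkhead transcription factors that sit at the end of the insulin and growth factor pathway. When PI3K and AKT are active, AKT phosphorylates FOXO proteins, which leave the nucleus; when the pathway is quiet, they enter it and activate genes of cell cycle arrest, stress defence, protein breakdown and fuel choice. In the endometrium FOXO1 is best known for decidualization, the change of stromal cells under progesterone, of which IGFBP1 is a classical product. Phosphorylation and location of a FOXO protein are not seen on an expression array.

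Arrays correlated with each other at 0.92 to 0.972 over all probe sets. Estradiol 4 stood apart by its smooth muscle genes: a score over 13 such genes, the mean deviation of log2 values from each gene's mean, was -3.4 there and -0.80 on tamoxifen 1, and lay from 0.05 to 0.58 on the other 14 arrays. Summed over these 13 genes, signal ran from 44918 to 53349 in control and 52897 to 57317 with the combination. It ran from 7319 to 54515 with estradiol and 27371 to 63975 with tamoxifen. Most arrays thus carried strong smooth muscle signal, and how much of the FBXO32 signal came from muscle cells was not tested. Epithelial markers (12 annotated, 10 tested) scored -0.77 to -0.70 on the control arrays and -0.48 to 0.93 on the treated ones, without overlap. Their summed signal ran from 5434 to 5877 in control, 7407 to 12694 with estradiol, 7006 to 13505 with tamoxifen and 7761 to 9989 with the combination. EPCAM, KRT8 and MUC1 passed the threshold upward in all 3 treated arms. Of the 10 tested, 5 rose with estradiol, 3 with tamoxifen and 5 with the combination, and none fell. Among all genes tested, 16.5%, 8.59% and 10.6% rose in these arms. Defining markers such as EPCAM had signal in every arm of this tissue, labelled as endometrium, but CDH1 and KRT7 were below the filter. Stromal markers (12 annotated) scored -0.63 to -0.41 in control and -0.12 to 0.49 in treated arrays. Endothelial markers (11 annotated) scored 0.19 to 0.44 in control and -0.54 to 0.0074 with estradiol, without overlap. They scored -0.32 to 0.34 with tamoxifen and -0.33 to 0.20 with the combination, which both overlapped control. In bulk tissue, fewer cells of a type and less RNA per cell cannot be told apart. The actin control probe sets at the 3' and the 5' end of the transcript, set against each other as a measure of RNA length, gave a log2 ratio of 0.92 ± 0.11 (SD, n = 4) in control, 0.57 ± 0.18 with estradiol, 0.52 ± 0.043 with tamoxifen and 0.55 ± 0.075 with the combination. The smooth muscle and epithelial scores were put into the model as covariates; the part of the other measures in the differences between arms was not tested.

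The mRNA of the factor FOXO1 (MmugDNA.34777.1.S1_at) was at a similar level in all arms. Its signal was 1622, 2174, 1579 and 2208 on control arrays 1 to 4 and 1837, 1421, 1897 and 1228 on the estradiol arrays. It was 1910, 3005, 2586 and 1867 with tamoxifen and 1695, 2150, 2070 and 1898 with the combination. The highest 2 values were on tamoxifen arrays and the lowest 2 on estradiol arrays, and every pair of arms overlapped. The difference from control was -0.25 (SE 0.18) with estradiol, 0.29 with tamoxifen and 0.05 with the combination. The order of mean log2 levels was tamoxifen (11.17), combination (10.93), control (10.87) and estradiol (10.62), and no neighbours in it differed by more than the SD of the tamoxifen arm, 0.34. The ends of that order differed by 0.55 (95% interval 0.17 to 0.92), which did not pass over all probe sets (adjusted p = 0.194).

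**Figure D1:**
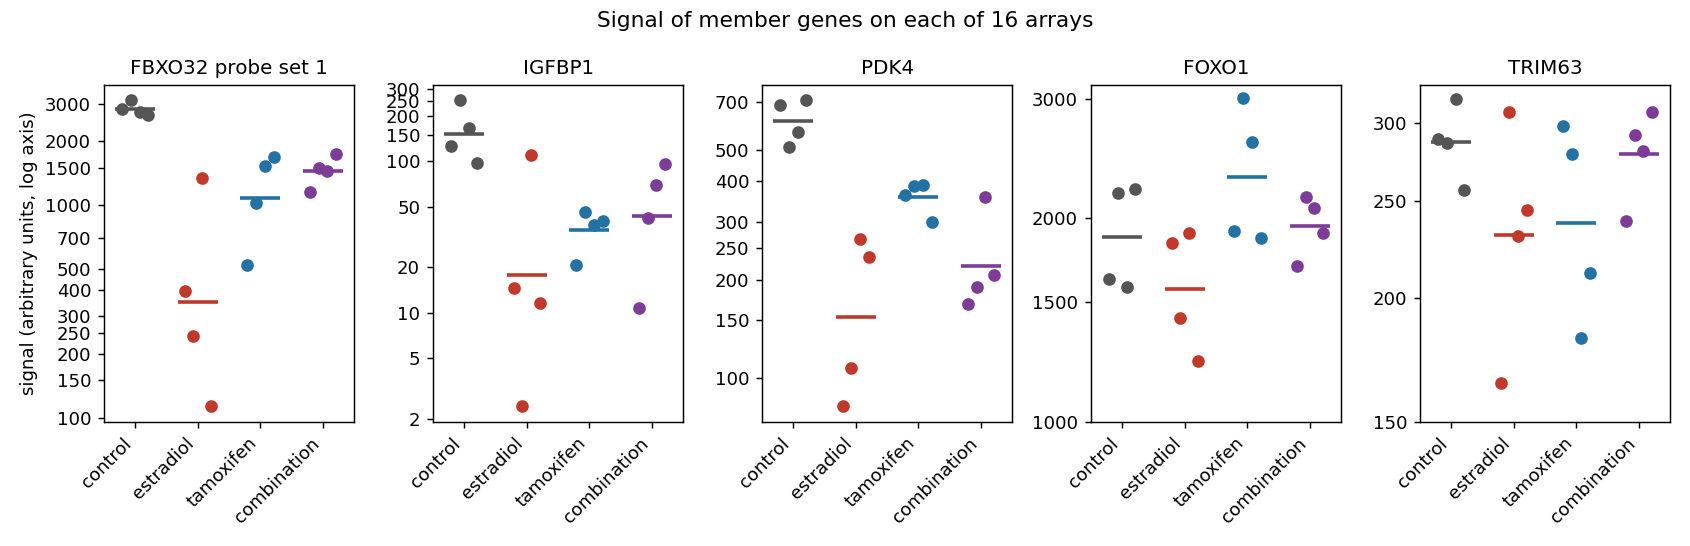
Signal of FBXO32 probe set 1, IGFBP1, PDK4, FOXO1 and TRIM63 on each of the 16 arrays (points, 4 per arm, log axis with its own range in each panel), with a bar at the mean log2 level of the arm. FBXO32 probe set 1 runs from 2656 to 3124 on control arrays and from 113 to 1345 on estradiol arrays, while FOXO1 and TRIM63 overlap between all arms.

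FBXO32, also called atrogin-1, is the substrate-binding F-box subunit of an SCF ubiquitin ligase and a FOXO target of wasting muscle. The signal of FBXO32 probe set 1 (MmugDNA.16757.1.S1_at) was 2835, 3124, 2742 and 2656 on control arrays 1 to 4, and 395, 241, 1345 and 113 on estradiol arrays 1 to 4. It was 525, 1027, 1523 and 1697 with tamoxifen, and 1150, 1491, 1446 and 1750 with the combination. The 4 control arrays lay close together and above every treated array, and the estradiol arm was the most spread, with estradiol 3 high and estradiol 4 low. The estradiol mean was 8.03-fold lower than control (difference -3.01, SE 0.53), the tamoxifen mean 2.60-fold lower (-1.38) and the combination mean 1.96-fold lower (-0.97). The SE was the same for all, as 1 spread was pooled over the arms. Their SDs were unequal: 0.10 in control, 1.5 with estradiol, 0.76 with tamoxifen and 0.25 with the combination. With only the arms compared, the SE was 0.60 for estradiol, 0.32 for tamoxifen and 0.12 for the combination.

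The other 4 FBXO32 probe sets gave the same order of arms, control, combination, tamoxifen and estradiol. FBXO32 probe set 2 (MmuSTS.4368.1.S1_at) ran from 701 to 1454 in control, 118 to 624 with estradiol, 287 to 613 with tamoxifen and 423 to 775 with the combination. FBXO32 probe set 3 (MmugDNA.16754.1.S1_at) ran from 287 to 398, 37.2 to 191, 81.3 to 199 and 133 to 201 in the same order. Only probe set 2 overlapped between the combination and control. FBXO32 probe set 4 (MmugDNA.38820.1.S1_at) ran from 278 to 479 in control and 30.2 to 169 with estradiol, and FBXO32 probe set 5 (MmugDNA.16754.1.S1_s_at) from 181 to 408 and 22.1 to 128. Estradiol minus control was -2.17, -2.15, -2.37 and -2.40 for probe sets 2 to 5, tamoxifen minus control was -1.12, -1.24, -1.63 and -1.49, and combination minus control was -0.73, -0.90, -1.11 and -1.12. Across the 16 arrays the 10 pairs among the 5 probe sets correlated at 0.92 to 0.979. These measure 1 transcript in the same RNA, and the names of probe sets 3 and 5 differ only in the suffix, so they are not replicates of each other.

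Tamoxifen added to estradiol went with a higher FBXO32 level than estradiol alone, but the difference did not pass the threshold. Combination minus estradiol was 2.03 for FBXO32 probe set 1 (SE 0.53, 95% interval 0.91 to 3.16, adjusted p = 0.0698), and 1.44, 1.25, 1.26 and 1.28 for probe sets 2 to 5 (adjusted p = 0.0914, 0.106, 0.131 and 0.122). Estradiol 3, at 1345 on FBXO32 probe set 1, lay above combination 1 at 1150; the other 3 estradiol arrays lay below all combination arrays. Without estradiol 3 the difference for FBXO32 probe set 1 was 2.68, and without estradiol 4 it was 1.50. This comparison shares the estradiol arrays with the one that was known when FBXO32 was chosen for its low estradiol level, so its p-values are given as a description and no call is read from them. Tamoxifen minus estradiol was 1.63 (SE 0.53, adjusted p = 0.193), and combination minus tamoxifen 0.41 (95% interval -0.72 to 1.53, adjusted p = 1). The mean log2 levels stood in the order control, combination, tamoxifen and estradiol, and the treated arms overlapped. No pair of treated arms passed the threshold, but no call is read from this, as both pairs with estradiol hold those same arrays.

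Estradiol minus control for FBXO32 probe set 1 was -2.48 without estradiol 4 and tamoxifen 1, the 2 arrays low in smooth muscle genes, and also -2.48 with the smooth muscle score in the model. Without estradiol 3 it was -3.65. With the epithelial score in the model it was -1.54, tamoxifen minus control was -0.10 and combination minus control was 0.45 in place of -0.97. The epithelial score separates control from all treated arrays, so in a difference from control, treatment and epithelial content cannot be told apart. Combination minus estradiol compares treated arms alone, though the slope of each score was fitted over all 16 arrays. It was 1.99 with the epithelial score (adjusted p = 0.0163) and 1.35 with the smooth muscle score (adjusted p = 0.104). These p-values from limma are descriptions too, and no call is read from them.

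**Figure D2:**
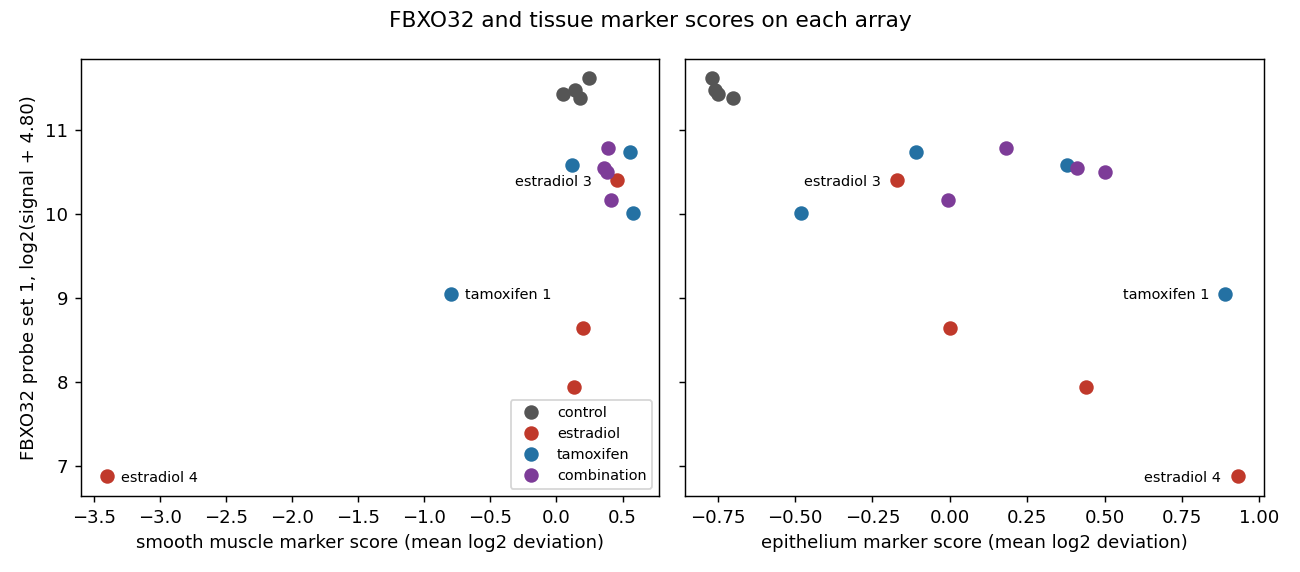
Log2(signal + 4.80) of FBXO32 probe set 1 against the smooth muscle score (left) and the epithelial score (right) of the same array, 1 point per array, coloured by arm. Estradiol 4 is lowest for FBXO32 and for smooth muscle genes, at -3.4, while estradiol 1 and estradiol 2 are low for FBXO32 at smooth muscle scores of 0.20 and 0.13; on the right the 4 control arrays lie apart, at -0.77 to -0.70.

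TRIM63, or MuRF1, is a RING-finger ubiquitin ligase that breaks down proteins of the muscle filament and is paired with FBXO32 as a marker of muscle wasting. Its signal (MmuSTS.2400.1.S1_at) was 289, 286, 317 and 257 in control and 164, 308, 231 and 245 with estradiol. It was 298, 279, 182 and 212 with tamoxifen and 239, 292, 281 and 308 with the combination. All arms overlapped, and the difference from control was -0.30 (SE 0.18) with estradiol, -0.26 with tamoxifen and -0.04 with the combination. Combination minus estradiol was 0.26 (95% interval -0.13 to 0.66, adjusted p = 0.528). Tamoxifen 2 carried skeletal muscle transcripts, with a summed signal of 8255 over 10 annotated markers against 285 to 811 on the other arrays, and TRIM63 was 279 there, within the range of the control arrays. Its relatives TRIM54 and TRIM55 were below the filter, with signals of 7.10 to 48.8 and 1.65 to 24.4.

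PDK4, a mitochondrial kinase that phosphorylates and shuts down pyruvate dehydrogenase and so spares glucose in favour of fat, was lower in all 3 treated arms than in control. Its signal (MmugDNA.985.1.S1_at) was 685, 510, 568 and 709 in control and 81.8, 107, 266 and 234 with estradiol. It was 364, 386, 391 and 300 with tamoxifen and 168, 190, 358 and 206 with the combination. No treated array reached the lowest control array, and all tamoxifen arrays lay above all estradiol arrays. The estradiol mean was 3.91-fold lower than control (-1.97, SE 0.32), the tamoxifen mean 1.70-fold lower (-0.77) and the combination mean 2.74-fold lower (-1.45).

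The treated arms stood in another order for PDK4 than for FBXO32, with tamoxifen (mean log2 8.50) above the combination (7.82) and the combination above estradiol (7.30). No pair of treated arms differed at the threshold: tamoxifen minus estradiol for PDK4 was 1.20 (95% interval 0.53 to 1.87, adjusted p = 0.109), combination minus estradiol 0.51 (-0.16 to 1.18, adjusted p = 0.46) and combination minus tamoxifen -0.69 (-1.36 to -0.02, adjusted p = 1). The pairs with estradiol use the arrays of the comparison known when the genes were chosen, so no call is read from their p-values. In a model that holds the epithelial score, PDK4 was lower than control by nearly the same amount with estradiol (-2.24) and with the combination (-1.72). Without estradiol 4 and tamoxifen 1 the estradiol difference was -2.16.

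IGFBP1, a secreted protein that binds insulin-like growth factors, was measured near the lower limit of the array. Its mean log2 level was 7.29 in control, 4.50 with estradiol, 5.32 with tamoxifen and 5.60 with the combination, beside a filter of 5.36 that was set on the mean over all arrays, so that it passed through the control arm. Its signal (MmugDNA.20275.1.S1_at) was 127, 254, 166 and 97.6 in control and 14.5, 2.41, 110 and 11.6 with estradiol. It was 20.8, 46.5, 38.3 and 40.7 with tamoxifen and 10.7, 42.6, 70.4 and 96.0 with the combination. Tamoxifen and combination arrays all lay below control, and among estradiol arrays only estradiol 3 reached into the control range. The difference from control was -2.79 (SE 0.69) with estradiol, -1.96 with tamoxifen and -1.68 with the combination. These sizes rest on treated signals near the floor: the estradiol difference of IGFBP1 was -3.21 at a pseudocount of 1, -1.72 at a pseudocount of 32 and -3.57 without estradiol 3, and no fold is given. Combination minus estradiol was 1.10 (95% interval -0.36 to 2.57, adjusted p = 0.466), and the 3 treated arms could not be ordered beyond their spread. With the epithelial score in the model the difference from control for IGFBP1 was -1.82 with estradiol and -0.74 with the combination.

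**Figure D3:**
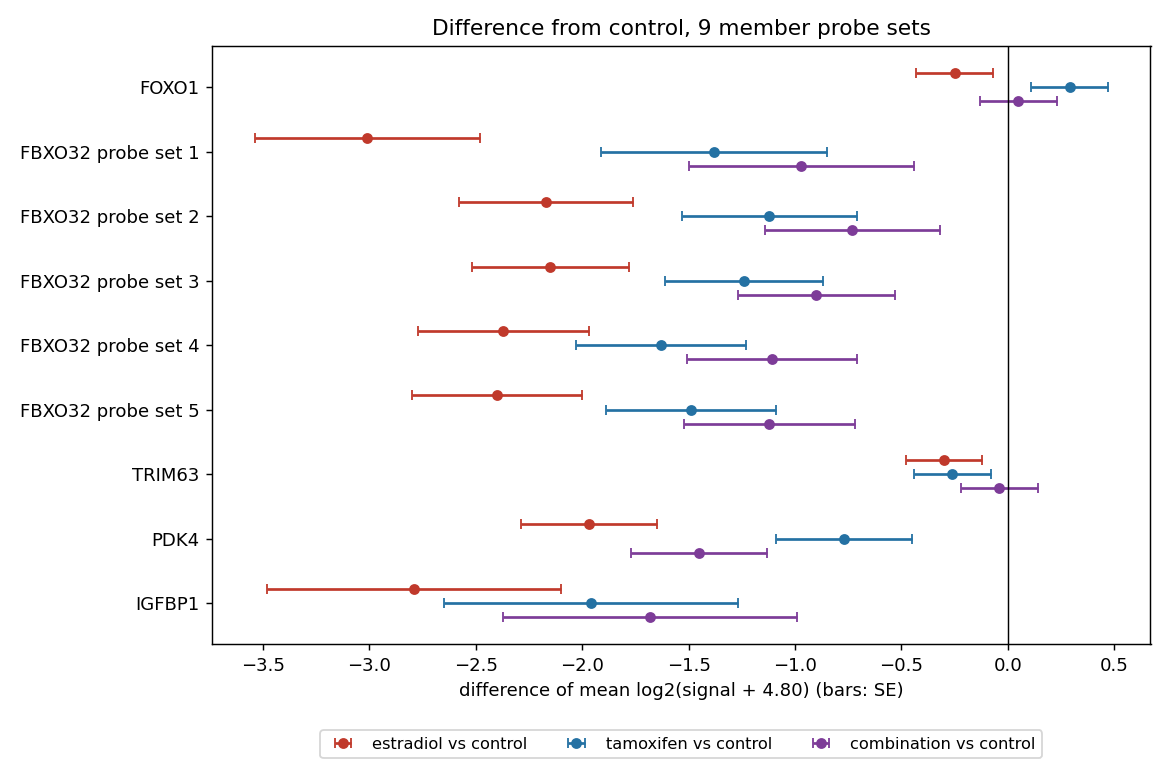
Difference of each treated arm from control in mean log2(signal + 4.80) for the 9 probe sets, with bars of 1 SE, n = 4 arrays per arm. The 5 FBXO32 probe sets lie at -2.15 to -3.01 with estradiol and nearer to 0 with tamoxifen and with the combination; PDK4 is the gene for which the combination (-1.45) lies farther from 0 than tamoxifen (-0.77).

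Over the 9 probe sets, 7 were lower with estradiol at the threshold, beside 12.3% of all tested probe sets, 3 with tamoxifen, beside 6.17%, and 1 with the combination, beside 7.79%. All arrays of the arm lay below all controls for 6 of 9 with estradiol, 7 of 9 with tamoxifen and 6 of 9 with the combination, where the shares of all tested probe sets were 11.9%, 9.73% and 11.8%. The median difference of the 9 was -2.17, -1.24 and -0.97, beside -0.018, -0.023 and -0.035 over all probe sets. As the genes were chosen with these comparisons known, and 5 of the 9 measure FBXO32, nothing is read from these counts. Between treated arms no member passed: 0 of 9 for combination against estradiol, where 1.22% of all probe sets passed, 0 of 9 for combination against tamoxifen, where 0% passed, and 0 of 9 for tamoxifen against estradiol, where 0.569% passed. At an unadjusted p under 0.05 limma gave 5 of 9 for combination against estradiol, all of them FBXO32, beside 15.8% of all probe sets. It gave 1 of 9 for combination against tamoxifen, which was PDK4, beside 4.05%, and 6 of 9 for tamoxifen against estradiol, beside 12.9%. The FBXO32 probe sets measure 1 transcript and the estradiol arrays are those of the known comparison, so nothing is read from these counts either. None of the 9 had all combination arrays above all estradiol arrays, beside 4.19% of all probe sets.

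The estradiol difference in the presence of tamoxifen, minus that without it, is the interaction of the drugs. It was 3.41 (SE 0.75) for FBXO32 probe set 1, 2.49 to 2.88 for the other FBXO32 probe sets, 3.07 (SE 0.97) for IGFBP1, 1.28 (SE 0.45) for PDK4, 0.52 for TRIM63 and 0.02 for FOXO1. For FBXO32 this reflects an estradiol difference of -3.01 without tamoxifen and 0.41 with it. The interaction contains the known comparison and is given as a value, with no p.

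Estradiol 3 had the highest signal of its arm for FBXO32, IGFBP1, PDK4 and FOXO1, and not for TRIM63, for which estradiol 2 was highest. Over the 16 arrays FBXO32 probe set 1 correlated at 0.839 with IGFBP1, 0.654 with PDK4, 0.493 with FOXO1 and 0.19 with TRIM63, and PDK4 at 0.739 with IGFBP1. These correlations include the differences between arms and share the arrays' scaling, and are descriptions. The genes most like FBXO32 over the arrays, by Pearson correlation of log2 values, were MYL11 (0.945), DNMT1 (0.944), FOXP1 and ARID5B (both 0.942) and NTRK3 (0.939). Those most like PDK4 were AGGF1 and PNISR (both 0.909), LOC709183 (0.907), LOC714398 (0.901) and RTTN (0.899). For IGFBP1 they were LOC699612 (0.926), BICRAL (0.916), MARCHF8 (0.909), FAM91A1 (0.905) and LOC694177 (0.903). FOXO1 and TRIM63, with little difference between arms, had looser neighbours: PML (0.83), MAFG (0.809), SUCLA2 (0.801), IRX3 (0.793) and RASIP1 (0.791) for FOXO1, and TMEM234 (0.832), TINF2 (0.811), LOC699373 (0.805), PTPRU (0.784) and PECR (0.782) for TRIM63.

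Among the factors' own relatives, FOXO4 fell in every treated arm. Its signal was 321, 357, 334 and 283 in control, 105, 112, 177 and 137 with estradiol, 160, 183, 134 and 156 with tamoxifen, and 127, 200, 190 and 198 with the combination. No treated array reached control, and FOXO4 fell by 1.28 with estradiol (SE 0.18, adjusted p = 0.000221), by 1.01 with tamoxifen (adjusted p = 0.00275) and by 0.85 with the combination (adjusted p = 0.0058). FOXO6 rose with tamoxifen (1.70, adjusted p = 0.044), while its differences with estradiol (1.24, adjusted p = 0.0976) and with the combination (1.51, adjusted p = 0.0634) did not pass. Its control arrays ran from 19.8 to 132 and overlapped with every treated arm, and the tamoxifen call was lost without control 1 (1.33, adjusted p = 0.126), control 3, control 4, tamoxifen 1, tamoxifen 3, tamoxifen 4 or any 1 combination array. FOXO4 with the combination was at -0.80 once the epithelial score was in the model (adjusted p = 0.0694).

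Direct FOXO targets of stress defence and cell cycle arrest, a list of 23 genes of which 21 were measured, fell more often than they rose. With estradiol 13 fell and 1 rose, beside 13.2% and 16.5% of 10706 genes tested; with tamoxifen 9 fell and 1 rose, beside 7.64% and 8.59%; with the combination 10 fell and 1 rose, beside 9.09% and 10.6%. The list median was -0.67, -0.34 and -0.37, against 0.012, -0.018 and -0.013 over all genes. Given the epithelial score as a covariate, 9, 6 and 7 fell, and without 1 array at a time 12 to 13, 7 to 11 and 7 to 10. As the list was chosen with earlier results of these data known, these counts and medians are descriptions.

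CDKN1B, the cell cycle inhibitor p27, had signals of 1220 to 1350 on control arrays and 424 to 825 on treated arrays. It fell by 1.25 with estradiol (SE 0.16, adjusted p = 0.00014), by 1.08 with tamoxifen (adjusted p = 0.00114) and by 1.13 with the combination (adjusted p = 0.000614), with no overlap in any. BCL2L11, which encodes the cell death protein BIM, fell by 1.27 with estradiol (SE 0.13, adjusted p = 3.68e-05), by 1.27 with tamoxifen and by 1.67 with the combination, but 1 of its other 2 probe sets was at 0.13, -0.09 and -0.11. IRS2, an insulin receptor substrate that stands both in this list and in the PI3K list, ran from 2030 to 2740 in control and from 514 to 1240 on treated arrays. It fell by 1.58 with estradiol (SE 0.20, adjusted p = 0.000127), by 1.12 with tamoxifen and by 1.03 with the combination.

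The rest of the 13 that fell with estradiol were CITED2, KLF6, TNFSF10, KLF2, CAT, GADD45B, SESN1, TXNIP, BCL6 and RBL2, at -0.30 to -1.27; they are named to complete the count. CAT encodes catalase, which breaks down hydrogen peroxide, and SESN1 a stress sensor that damps mTOR signalling. KLF2, CITED2, TNFSF10 and BCL6 did not pass with tamoxifen. The 1 gene that rose in all 3 treated arms was GADD45A, a growth arrest gene, at 0.65 with estradiol, 0.63 with tamoxifen and 0.57 with the combination. None of the 21 passed between the combination and estradiol, beside 1.33% of all genes. The interaction passed for 8 upward (4.77% of all genes did so) and for GADD45A downward. It contains the estradiol difference from control, in which these genes had already passed, so nothing is read from this count.

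**Figure D4:**
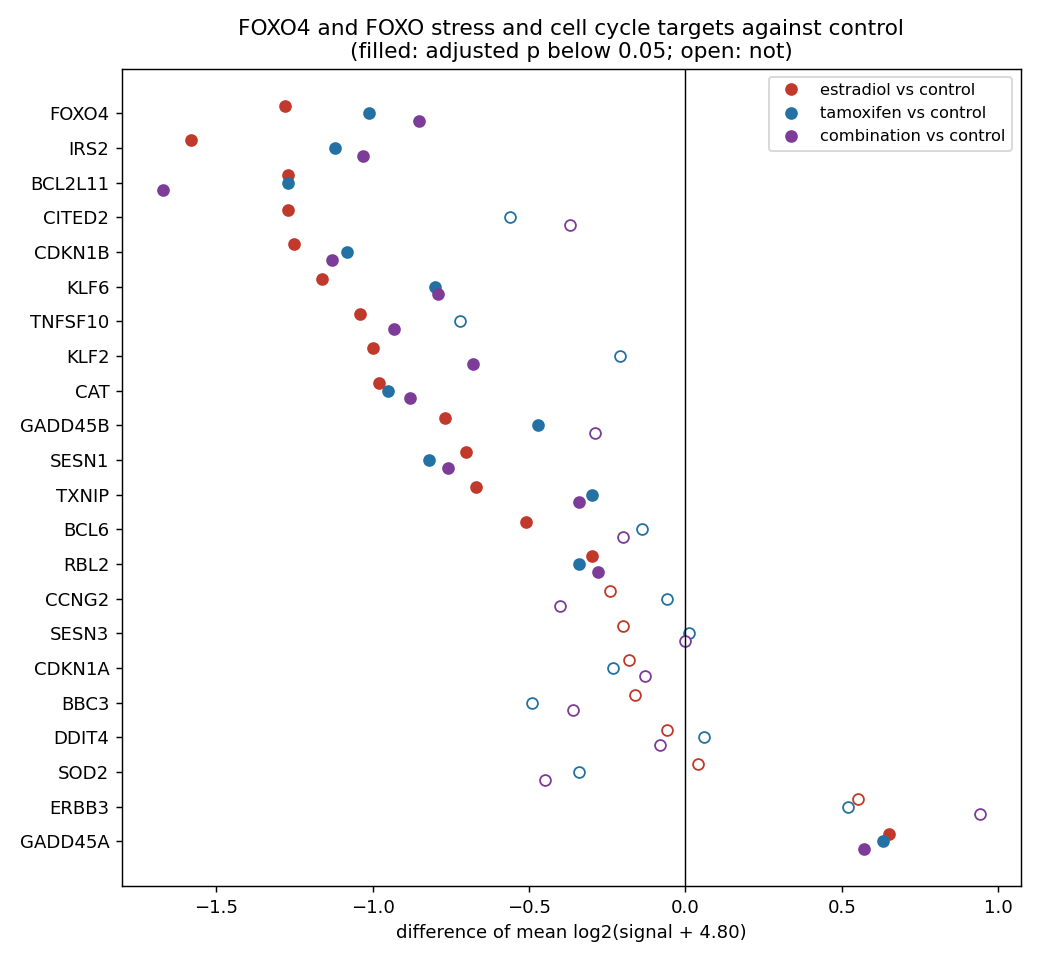
Difference from control in mean log2(signal + 4.80) for FOXO4 and 21 FOXO targets of stress defence and cell cycle arrest, 1 point per treated arm; filled points have an adjusted p below 0.05 in limma, open points do not. FOXO4, IRS2, BCL2L11 and CDKN1B are filled at -0.85 to -1.67 in all 3 arms, and GADD45A is the gene filled above 0.

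In the pathway that feeds FOXO, 16 of 22 listed PI3K and AKT genes were tested, and most did not pass. With estradiol 4 fell (IRS2, PIK3CA, PIK3IP1 and RICTOR) and 1 rose (SGK1), with tamoxifen 3 fell and none rose, and with the combination 3 fell and none rose. Over all genes tested 13.2% fell and 16.5% rose with estradiol, 7.64% and 8.59% with tamoxifen, and 9.09% and 10.6% with the combination, and in a list of 16 these counts are within a few genes of those shares. PIK3IP1, an inhibitor of PI3K, ran from 936 to 1150 in control, 235 to 540 with estradiol, 313 to 650 with tamoxifen and 522 to 859 with the combination. It fell by 1.65 with estradiol (SE 0.26, adjusted p = 0.000545) and by 1.15 with tamoxifen (adjusted p = 0.011), and was at -0.49 with the combination (adjusted p = 0.219). It was the 1 gene of the list higher with the combination than with estradiol (1.15, adjusted p = 0.0459), a call lost without any 1 of estradiol 1 (1.08, adjusted p = 0.15), estradiol 2, estradiol 4, tamoxifen 3 or any control or combination array. RICTOR, a subunit of the mTOR complex that activates AKT, fell by 1.28 with estradiol (adjusted p = 0.000377) and by 1.00 with tamoxifen, and was at -0.51 with the combination (adjusted p = 0.0892). INPP4B, a lipid phosphatase that opposes PI3K, fell with the combination by 0.90 (adjusted p = 0.0153), and was at -0.37 with the epithelial score in the model (adjusted p = 0.437). INPP4B signals were low, from 43.6 to 67 in control and from 22 to 36.9 with the combination, so the size of its fall is uncertain.

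Of 11 tested enzymes and partners that modify FOXO proteins, 3 fell and 3 rose with estradiol, 2 fell and 1 rose with tamoxifen, and 1 fell with the combination. The shares of all genes that fell and rose were 13.2% and 16.5% with estradiol, 7.64% and 8.59% with tamoxifen, and 9.09% and 10.6% with the combination, so the counts of 1 and 2 are near the background. SIRT1, a deacetylase that acts on FOXO proteins, fell in every treated arm, by 0.63 (SE 0.091, adjusted p = 0.000264), 0.60 and 0.74. EP300, an acetyltransferase, fell with estradiol by 0.35 (adjusted p = 0.000736), but its other 5 probe sets ran from -1.58 to 0.19. PRMT1, a methyltransferase, rose by 0.47 with estradiol (adjusted p = 0.0051) and 0.49 with tamoxifen, while its other 3 probe sets ran from -1.61 to 0.14 with estradiol, so its direction depends on the probe set. With a covariate for epithelium, PRMT1 with estradiol was at 0.41 (adjusted p = 0.106).

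Around FBXO32, 9 of 13 listed SCF ligase and F-box genes were tested, and 2 passed with estradiol, 1 in each direction, which is near the 16.5% of all genes that rose and the 13.2% that fell. SKP2, the F-box protein that marks p27 for breakdown and a regulator of FOXO1, rose by 0.64 with estradiol (adjusted p = 0.0186). Without control 4 its rise did not pass (0.53, adjusted p = 0.0582). CUL1, the scaffold of these ligases, was at -0.21, -0.23 and -0.26 in the 3 treated arms, past the threshold in each, but its other 2 probe sets were at 0.04 and 0.30 with estradiol, and its estradiol call was lost without any 1 estradiol array or without control 1 or control 3 (-0.18 to -0.21, adjusted p = 0.0523 to 0.0912). Its tamoxifen and combination calls were lost without control 1 as well (adjusted p = 0.0911 and 0.0516).

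Of 13 tested muscle atrophy and autophagy genes, 4 fell and 1 rose with estradiol, 3 fell and 1 rose with tamoxifen, and likewise with the combination. Of all genes 13.2%, 7.64% and 9.09% fell in these arms and 16.5%, 8.59% and 10.6% rose. ULK1, the kinase that starts autophagy, fell by 0.82 with estradiol (SE 0.11, adjusted p = 0.000199), 0.58 with tamoxifen and 0.57 with the combination, and its other probe set was at -1.06, -0.96 and -0.64. CTSL, a lysosomal protease, fell by 0.93, 0.55 and 0.60, and its tamoxifen call was lost without control 2, tamoxifen 1 or tamoxifen 3 (-0.46, -0.47 and -0.53). NEDD4, a ubiquitin ligase, fell by 0.36, 0.43 and 0.59, and its estradiol call was lost without control 3 or estradiol 1 (-0.31 and -0.33, adjusted p = 0.0528 in both). PSMD11, a proteasome subunit and FOXO4 target, rose by 0.55, 0.62 and 0.35, the last of which was lost on leaving out any 1 of 12 arrays (0.25 without control 3, adjusted p = 0.13).

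Of 13 tested PDK, pyruvate dehydrogenase and fatty acid oxidation genes other than PDK4, none fell and 4 rose with estradiol, 2 rose and 1 fell with tamoxifen, and 1 rose and 1 fell with the combination. The shares of all genes that rose were 16.5%, 8.59% and 10.6%, and those that fell 13.2%, 7.64% and 9.09%, so the tamoxifen and combination counts are near the background. PDK3, a second pyruvate dehydrogenase kinase, ran from 48.4 to 54.5 in control and from 55.2 to 185 in treated arms. It rose by 0.94 with estradiol (SE 0.26, adjusted p = 0.0158), 1.38 with tamoxifen and 1.18 with the combination, but without estradiol 1 or estradiol 2 the estradiol difference was 0.84 or 0.74 and did not pass (adjusted p = 0.0506 and 0.0574). PDP1, a phosphatase that turns pyruvate dehydrogenase on, fell by 0.65 with tamoxifen (adjusted p = 0.00525) and 0.59 with the combination. HADHB, of mitochondrial fatty acid oxidation, rose by 0.47 with estradiol and with tamoxifen, and ACADM, of the same pathway, by 0.41 with estradiol, a rise that did not pass without control 2 or estradiol 2 (0.35 and 0.36, adjusted p = 0.0546 and 0.064).

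Of 7 tested FOXO targets of metabolism, 2 rose and 1 fell with estradiol, 1 rose with tamoxifen and 2 rose with the combination. In a list of 7 these counts are small beside shares of all genes that rose of 16.5%, 8.59% and 10.6%, and 13.2% that fell with estradiol. G6PC1, which releases glucose in liver, rose by 1.02 with estradiol (adjusted p = 0.031), 1.85 with tamoxifen (adjusted p = 0.00259) and 2.15 with the combination (adjusted p = 0.000802). The estradiol difference of G6PC1 was -0.08 with the epithelial score in the model, and its call was lost without estradiol 4 (0.78, adjusted p = 0.0954), estradiol 1, estradiol 2, control 2, control 3 or control 4. KLF15, a factor of amino acid and glucose metabolism, fell by 0.96 with estradiol (adjusted p = 0.0038). PNPLA2, a fat-releasing lipase, rose by 0.61 with estradiol (adjusted p = 0.00153), while its other probe set was at -0.34.

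The insulin-like growth factor binding proteins other than IGFBP1 went different ways. IGFBP2 ran from 867 to 1140 in control and from 2190 to 3970 on treated arrays, and rose by 1.58 with estradiol (SE 0.15, adjusted p = 1.81e-05), 1.58 with tamoxifen and 1.81 with the combination. IGFBP4 rose by 0.55, 0.78 and 0.77, although with estradiol it did not pass without control 3 (0.45, adjusted p = 0.0817), and likewise without control 1, estradiol 1 or estradiol 2. IGFBP3 fell by 1.41 with estradiol (adjusted p = 0.00591), 1.03 with tamoxifen (adjusted p = 0.0498) and 1.26 with the combination. The tamoxifen call was lost on leaving out any 1 array other than estradiol 3 or estradiol 4, and was at -0.72 without tamoxifen 1 (adjusted p = 0.145), and the combination call was lost without combination 1 (-1.16, adjusted p = 0.0557). With the epithelial score IGFBP3 was at -0.44 with estradiol (adjusted p = 0.454). IGFBP5 rose with tamoxifen by 1.89 (SE 0.60, adjusted p = 0.0485), a call lost on leaving out any 1 array other than estradiol 1, estradiol 2 or estradiol 4 (1.74 without control 1, adjusted p = 0.111). IGFBP5 was at 1.27 with estradiol (adjusted p = 0.135) and 1.45 with the combination (adjusted p = 0.112). IGFBP6 and IGFBP7 did not pass in any treated arm.

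Of 16 tested decidualization genes, 4 rose and 3 fell with estradiol, 2 rose and 3 fell with tamoxifen, and 1 rose and 3 fell with the combination. Over all genes 16.5% rose and 13.2% fell with estradiol, 8.59% and 7.64% with tamoxifen, and 10.6% and 9.09% with the combination, and the counts of this list lie within a few genes of those shares. HOXA11, a homeobox gene of the uterus, rose by 0.76 with estradiol (SE 0.11, adjusted p = 0.000212), 0.38 with tamoxifen and 0.45 with the combination; the tamoxifen call was lost without control 2, control 4, tamoxifen 1 or tamoxifen 2 (0.32 to 0.36). WNT4, a signal of stromal decidualization, rose by 2.09 with estradiol (SE 0.48, adjusted p = 0.00522), with arrays that overlapped control, and was at 0.82 with the epithelial score in the model (adjusted p = 0.368). CEBPB, a transcription factor that works with FOXO1, fell by 0.63 with tamoxifen (adjusted p = 0.00176) and 0.49 with the combination. PRL, the other classical decidual product beside IGFBP1, was below the filter, with signals of 0.836 to 11.3.

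IL15 and HAND2 were the 2 of the 16 tested decidualization genes that passed between the combination and estradiol, beside 1.33% of all genes. IL15, a cytokine of uterine natural killer cells, was 563, 641, 421 and 468 in control, 309, 458, 430 and 380 with estradiol, 227, 294, 333 and 168 with tamoxifen, and 195, 154, 111 and 157 with the combination. It was lower with the combination than with estradiol (-1.34, SE 0.22, adjusted p = 0.0136), with no overlap, and its other 2 probe sets gave -1.31 and -1.35. Among leukocyte markers (7 annotated, 6 tested), PTPRC, CD8A and NKG7 fell with the combination against control, by 1.58, 1.23 and 1.49 (adjusted p = 0.0165, 0.00961 and 0.00215), while LYZ, which encodes lysozyme, rose by 2.82 (adjusted p = 0.00179) and CD68 and CSF1R did not pass. The PTPRC call was lost without combination 2 or combination 3 (-1.32 and -1.41), and PTPRC was at -0.36 with the epithelial score in the model (adjusted p = 0.611). The same 4 markers passed in the same directions with tamoxifen against control, and none of the 6 with estradiol. Over all genes 9.09% fell and 10.6% rose with the combination, 7.64% and 8.59% with tamoxifen, and 13.2% and 16.5% with estradiol. None of the 6 passed between the combination and estradiol, where NKG7 was at -1.04 (adjusted p = 0.0659), and MS4A1 was below the filter. The leukocyte score ran from -0.056 to 0.68 in control, -0.52 to 0.31 with estradiol, -0.54 to 0.23 with tamoxifen and -0.43 to 0.072 with the combination. The markers' summed signal ran from 2488 to 4937, 2546 to 6594, 4347 to 10839 and 6289 to 12486 in the same order. LYZ alone ran from 586 to 11600 over all arrays, against 168 to 1410 for PTPRC, so the highest sums are mainly LYZ. The score likewise averages LYZ, which rose, with markers that fell, and does not stand for a single cell type. With the leukocyte score in the model, an alternative chosen after seeing the data, IL15 was at -1.28 between the combination and estradiol (adjusted p = 0.00769). HAND2, a stromal transcription factor, rose with estradiol by 0.80 (adjusted p = 0.0024) and was lower with the combination than with estradiol (-0.70, adjusted p = 0.0495), a call lost without estradiol 1 (-0.60, adjusted p = 0.167), without estradiol 2 or estradiol 4, or without any 1 combination array. Neither gene's difference went the way of FBXO32, for which the combination mean lay above the estradiol mean.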

How the data were processed

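Per the labels, total RNA of frozen endometrium was labelled with biotin and hybridised, 1 array per animal, 4 animals per arm. The authors deposited 1 linear intensity per probe set and array, from 0.0242 to 23401. MAS5, GCOS and Affymetrix Expression Console are named, without versions, in the submitters' processing notes. A mean trimmed by 2% at each end came to 250.0 on every array, and medians were 58.7 to 70.3, so no further normalization was applied. Such scaling makes every value relative to its array's total. The arrays' number limits the precision.

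The 99 control probe sets were left out. Values were taken to log2(signal + 4.80), the pseudocount being the 10th percentile of all values. Probe sets in the dimmest 40% by mean over all arrays were not tested. The model held a mean per arm over all 16 arrays and was fitted in limma 3.58.1 (R 4.3.3, lmFit, eBayes with trend, 12 residual degrees of freedom, 7 comparisons), with Benjamini-Hochberg adjustment over all probe sets tested. The fit was tested on simulated data. The animals were randomized separately, so arrays of an arm are separate animals.

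Of the probe sets, 24956 have a single symbol in the platform annotation, 361 several and 27449 none. Genes other than the members are represented by their brightest probe set. Probe sequences and genome positions were not used here. The members and gene lists were chosen with earlier results of these data known. Genes named from a list, by rule, were up to 3 past the threshold with the smallest p for estradiol against control and up to 2 in each of the comparisons tamoxifen against control, combination against control and combination against estradiol; likeness lists hold the 5 highest correlations. SGK1, PIK3CA, GADD45A, IGFBP5, IGFBP6, IGFBP7, the leukocyte markers and the epithelial markers were named after their values were seen. So were the relatives TRIM54 and TRIM55, PRL and the rest of the stress target list. Alternatives were other pseudocounts, filters, quantile normalization, eBayes settings, the arms compared alone, each array left out, the replicate number as a block, and marker scores as covariates, of which the leukocyte score, for IL15, was added after seeing the data.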

Additional observations from a re-analysis of the deposited data

Results flagged for a closer look

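FOXO4 on combination 1 lay apart from the other 3 arrays of its arm, at log2 7.05 against 7.61 for the nearest; the gap was 0.887 of the arm's range, above Dixon's 95% critical value. It was 1 of 44 groups examined, and chance alone gives about 1 in 20.

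The estradiol difference in the presence of tamoxifen minus that without it was 3.41, 2.56, 2.49, 2.88 and 2.77 for FBXO32 probe sets 1 to 5, given without a p since the genes were chosen on the estradiol difference. Of the 32 other genes named by rule, 18 were past the threshold for this interaction. Most were named for a small p against control, and that difference is part of the interaction, so no p is given and nothing is read from their number. The 10 with a positive value, whose level was lower with estradiol than in control, were FOXO4 (1.44), IRS2 (1.67), RICTOR (1.78), PIK3IP1 (2.30), SIRT1 (0.50), EP300 (0.35), BCL2L11 (0.87), CDKN1B (1.20), ULK1 (0.82) and CTSL (0.88). The 8 with a negative value, whose level was higher with estradiol, were PRMT1 (-0.64), PNPLA2 (-0.58), PSMD11 (-0.82), HADHB (-0.62), HOXA11 (-0.69), HAND2 (-0.94), WNT4 (-2.25) and IGFBP2 (-1.35). On leaving out 1 array at a time WNT4, PNPLA2 and SIRT1 fell short of the threshold without some arrays.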

How the results depend on the processing

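With the epithelial score as a covariate, 1 of 9 member probe sets in place of 7 passed for estradiol against control, 0 in place of 3 for tamoxifen, 3 in place of 0 for the combination against estradiol, and 0 in place of 5 for the interaction; FBXO32 probe set 1 was at -1.54 for estradiol against control and at 1.99 for the combination against estradiol. These counts, and those that follow, describe the settings only: the genes were chosen with the estradiol comparison known, 5 of the 9 measure FBXO32, and nothing is read from how many passed. Values that changed sign under that setting included FOXO6 (-0.07), INPP4B (0.19) and G6PC1 (-0.08) for estradiol against control, and the G6PC1 interaction (0.28). For the combination against control they included PIK3IP1 (0.03) and FBXO32 probe set 1 (0.45 in place of -0.97). The cause was not tested. For tamoxifen against control 5 passed with the smooth muscle score and 7 with only the arms compared; for the combination against control 5, 3 without estradiol 4 and tamoxifen 1, 3 at a pseudocount of 32, and 5 with only the arms compared.

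Leaving out 1 array at a time gave 7 for estradiol, 0 to 6 for tamoxifen and 1 to 5 for the combination against control, 0 to 5 for the combination and 0 to 4 for tamoxifen against estradiol (5 and 4 without estradiol 3), 0 for the combination against tamoxifen and 5 to 7 for the interaction. FBXO32 probe set 1 ran from -3.65 to -2.48 for estradiol against control and from 1.50 to 2.68 for the combination against estradiol. Replicate numbers did not pair the arrays: 24 same-numbered pairs correlated at -0.27 to 0.095 in their deviations. Each arm holds every number once, so a replicate block cannot change a difference between arms, only its SE. For FBXO32 probe set 1, at -3.01 for estradiol against control, the SE was 0.52 with the block and 0.53 without it. Of 9946 other values under the alternatives, 9241 were classed as unchanged. For tested differences this meant the same direction and side of the threshold. For differences of the chosen genes given without a test it meant a move of less than 1 SD. Counts of genes that changed modestly were also classed as unchanged. So were differences smaller than their SE that changed sign and passed in neither fit. The 60% filter removed IGFBP1, so its values there could not be given, and the interaction needs all arms.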
